A study of Mus musculus with 3 samples.

Results

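The nuclear-encoded genes of the mitochondrial respiratory chain were followed across the cell classes of arthritic mouse knee synovium. The genes were all symbols in the deposited gene lists that start with Nduf, with Sdh and a letter from a to d, with Uqcr, with Cox4 to Cox8, or with Atp5, without pseudogenes and without 11 assembly factors that carry similar names. This gave 85 genes of 24357 symbols. By name, 38 belong to complex I, 4 to complex II, 8 to complex III, 18 to complex IV and 17 to complex V, and 84, 85 and 84 of them were listed in libraries 1, 2 and 3. Ndufa4, named as a complex I gene, encodes a protein that is now counted with complex IV, and Atp5s and Atp5sl carry the Atp5 name without being core subunits of the ATP synthase.

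The tissue came from wild type female C57BL/6 mice aged 8 weeks with collagen- and antibody-induced arthritis. The animals had received 100 ug of type II collagen on day 0, 1 mg of antibodies against type II collagen on day 21 and lipopolysaccharide on day 22. Knee synovium of 6 mice at the effector phase was pooled by pairs into 3 droplet single-cell libraries. All 3 libraries belong to this single group and no untreated synovium was analysed here, so every comparison is between cell classes within the same libraries, and no value shows an effect of the disease. The submitters state 11111, 10668 and 14363 cells. The deposited tables hold 11939, 11602 and 15263 barcodes with 101384374, 99782608 and 116125707 unique molecular identifiers (UMIs). Of these barcodes 82 were left out for few genes or a high mitochondrial share.

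The respiratory chain passes electrons from NADH (complex I) and from succinate (complex II, which is also an enzyme of the TCA cycle) through complex III and cytochrome c to oxygen at complex IV. Proton pumping by complexes I, III and IV drives the ATP synthase, complex V. Most subunits are encoded in the nucleus and the remaining ones in mitochondrial DNA. Several complex IV subunits exist as paired genes, a form found in most tissues and a form known from muscle, lung or testis. Osteoclasts are known as cells rich in mitochondria, and neutrophils as cells that rely largely on glycolysis.

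Cells were assigned to classes by lists of marker genes, and a class is called after its list with the ending "-like". None of the 85 genes served as a marker. UMIs were summed per library and class and are given as CPM, the UMIs of a gene or set per 1000000 UMIs of that class. Each library is the tissue of 1 pair of mice and counts as 1 replicate, so ± is the SD of 3 libraries unless marked SE. The classes used most here held 11842 neutrophil-like, 8941 monocyte/macrophage-like, 5720 fibroblast-like, 638 pericyte/smooth-muscle-like and 234 osteoclast-like cells. In each of these classes the summed level of its own marker list was higher than in the others. The gates select cells on these same markers, so this order follows from the gating and is no separate check of identity. The osteoclast list stood at 13185, 12428 and 12592 CPM in osteoclast-like cells, against 182, 151 and 208 CPM in monocyte/macrophage-like cells. Median depth per cell ran from 12729 to 20749 UMIs in osteoclast-like, 6089 to 7926 in monocyte/macrophage-like and 1630 to 2103 in neutrophil-like cells. Droplets can also hold RNA set free by broken cells. Its share was estimated from the UMIs of collagen genes in neutrophil-like cells and of S100a8 and S100a9 in the other classes. This took free RNA to have the mix of all kept cells of its library, which was not tested. Under that assumption the share was at most 21.9% to 30.8% of the UMIs of neutrophil-like cells, 17.9% to 23.3% in monocyte/macrophage-like and 16.6% to 23.3% in osteoclast-like cells. Every free RNA limit and subtraction below rests on the same assumption. In pooled sums, fewer transcripts per cell and a changed total of all other RNA cannot be told apart.

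Promoter sequence was available for 70 of the 85 genes, in RefSeq tables of the GRCm38.p6 build (250 bases before to 50 after each start). Short motifs known from promoters were counted on both strands in the 76 promoter windows of these genes and in all 32851 windows of the tables. The nuclear respiratory factor 1 core, TGCGCA, stood in 19 of the 76 windows of respiratory chain genes and in 7.76% of all windows. The ETS motif CCGGAAG stood in 21.1% of their windows and 8.86% of all, the YY1 motif ATGGCGG in 17.1% and 4.05%, and the TATA box TATAAA in 10.5% and 13.6%. Of 82 respiratory chain genes tested, 74 were called higher in osteoclast-like than in monocyte/macrophage-like cells. Among these, 7 promoters held the nuclear respiratory factor 1 core with an ETS or YY1 motif. The share of all windows with this combination was not counted, and a link between motifs and levels was not tested. Of these 7, those 3 with the largest fold change are printed with their motifs in capitals, so that both the shared letters and their varied positions can be seen: Ndufb6 (chr4:40279372-40279671, minus strand), Ndufa5 (chr6:24527477-24527776, minus strand) and Sdhd (chr9:50603800-50604099, minus strand). The promoter of Cox7a1 (chr7:30183921-30184220, plus strand), a tissue-restricted subunit gene, is printed beside them and held none of the 4 motifs. Ndufa5 had another window in the tables, which held the nuclear respiratory factor 1 core alone. Coding sequence within the windows was not marked, so a match can lie in it. A match in such a window describes letters and does not show binding.
Ndufb6: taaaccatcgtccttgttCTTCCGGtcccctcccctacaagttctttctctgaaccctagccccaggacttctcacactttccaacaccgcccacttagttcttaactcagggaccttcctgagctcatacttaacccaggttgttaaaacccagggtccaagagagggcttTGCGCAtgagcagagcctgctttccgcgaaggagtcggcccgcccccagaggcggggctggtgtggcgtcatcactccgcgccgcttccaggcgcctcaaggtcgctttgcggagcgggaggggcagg
Ndufa5: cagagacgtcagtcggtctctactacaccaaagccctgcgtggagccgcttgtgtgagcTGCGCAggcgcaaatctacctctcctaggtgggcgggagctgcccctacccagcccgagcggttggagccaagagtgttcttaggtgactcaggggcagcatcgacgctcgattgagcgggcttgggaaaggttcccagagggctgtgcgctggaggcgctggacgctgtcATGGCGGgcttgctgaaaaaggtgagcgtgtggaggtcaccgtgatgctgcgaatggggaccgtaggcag
Sdhd: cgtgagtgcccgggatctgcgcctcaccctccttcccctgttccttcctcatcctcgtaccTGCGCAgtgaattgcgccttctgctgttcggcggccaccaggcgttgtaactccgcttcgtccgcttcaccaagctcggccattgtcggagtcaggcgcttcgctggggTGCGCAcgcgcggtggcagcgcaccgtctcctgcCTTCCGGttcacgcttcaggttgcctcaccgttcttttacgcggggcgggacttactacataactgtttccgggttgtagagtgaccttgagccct
Cox7a1: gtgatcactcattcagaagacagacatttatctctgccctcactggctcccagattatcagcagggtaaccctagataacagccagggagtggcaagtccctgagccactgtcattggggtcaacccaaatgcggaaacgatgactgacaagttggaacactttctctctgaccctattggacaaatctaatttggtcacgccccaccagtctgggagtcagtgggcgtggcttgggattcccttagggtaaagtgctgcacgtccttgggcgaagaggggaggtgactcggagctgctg

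The 85 genes together made up 2.17% of all UMIs. Their summed level was 52733, 53526 and 52767 CPM in osteoclast-like cells, against 24350, 23042 and 24135 CPM in monocyte/macrophage-like cells, and 10395, 9301 and 12009 CPM in neutrophil-like cells. Of these 3 classes, osteoclast-like cells were the highest and neutrophil-like cells the lowest in every library, without overlap. Adipocyte-like cells averaged 26259 ± 296, pericyte/smooth-muscle-like cells 23641 ± 1148, endothelial-like cells 22395 ± 822, T cell-like cells 20781 ± 1132 and fibroblast-like cells 20058 ± 689 CPM (SD, n = 3 each). Across libraries, the ranges of pericyte/smooth-muscle-like, monocyte/macrophage-like and endothelial-like cells overlapped, and so did those of T cell-like and fibroblast-like cells. Within each of the 3 libraries, endothelial-like cells were the lowest of that first group and T cell-like cells were above fibroblast-like cells. Erythroid-like cells ranged from 11760 to 18889 CPM, and the lowest of these values, in library 3, lay under that of neutrophil-like cells, with a free RNA share of up to 56.7%.

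**Figure D1:**
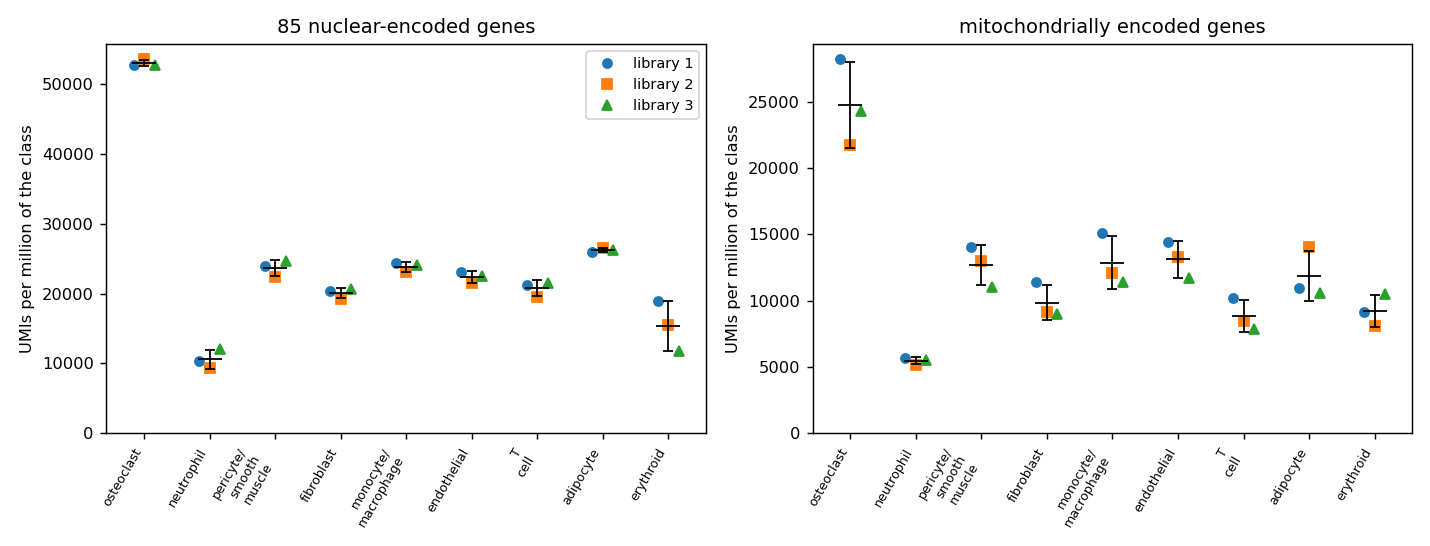
Summed level in CPM (vertical axes, from 0) of the 85 nuclear-encoded respiratory chain genes (left) and of the mitochondrially encoded genes (right) in 9 cell classes, with a symbol for each library and a black bar for the mean ± SD. The nuclear-encoded sum of osteoclast-like cells averages 53009 CPM, above every other class, and that of neutrophil-like cells averages 10568 CPM.

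Over 10 classes (those plotted and a dendritic gate), 75 of the 85 genes had their highest mean level in osteoclast-like cells and 69 their lowest in neutrophil-like cells. The same count over all genes was not made, so these numbers do not show that the pattern is particular to this set. The median Spearman correlation of a gene with the sum of the other 84 over these 10 classes was 0.83, and 77 genes stood at 0.5 or more; the points share libraries, depth and scaling, so this is a description. Ndufa4l2 (-0.49), Cox7b2, Cox8c, Cox6a2, Cox8b, Cox4i2 and Cox6b2 were the 7 genes under 0. Cox7b2 and Cox8c averaged at most 0.136 and 0.0130 CPM in any class and passed the filter in no comparison.

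Osteoclasts are the bone-resorbing cells of the monocyte lineage, and osteoclast-like cells had higher levels of nearly the whole set than monocyte/macrophage-like cells. Of 82 genes that passed the filter on low counts, 74 were called higher and 1 lower, at an edgeR adjusted p under 0.05 and a fold change of at least 1.5. Of all 12764 genes tested, 19.6% were called higher and 24.3% lower. At a limit of 2-fold, 56 were higher and 1 lower, against 11.5% and 17.6% of all genes. The 2 classes did not overlap in 79 of the 82 genes, nor in 60.2% of all genes tested. The median log2 fold change was 1.20 for the respiratory chain genes and -0.05 for all genes. By complex, 34 of 38 complex I genes, 4 of 4 complex II, 8 of 8 complex III, 12 of 15 complex IV and 16 of 17 complex V genes were called higher. The median log2 fold change was highest in complex III (1.74), then complex II (1.51), with complexes V, I and IV at 1.14, 1.12 and 1.03.

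Ndufab1 encodes the mitochondrial acyl carrier protein, a complex I subunit. It had 397, 413 and 392 CPM in osteoclast-like cells, against 108, 98.2 and 117 CPM in monocyte/macrophage-like cells. This was a log2 fold change of 1.90 ± 0.09 (SE; adjusted p = 8.39e-24), with no overlap. Uqcrc2, a core protein of complex III, showed the largest change of all 82 genes. Its level was 322, 307 and 305 CPM in osteoclast-like cells, against 77.0, 71.3 and 78.4 CPM in monocyte/macrophage-like cells (log2 fold change 2.05 ± 0.09, adjusted p = 7.44e-25). Atp5b, the catalytic beta subunit of the ATP synthase, had 1044, 986 and 955 CPM in osteoclast-like cells, against 272, 272 and 264 CPM in monocyte/macrophage-like cells (log2 fold change 1.89 ± 0.08, adjusted p = 1.83e-25).

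All 4 subunits of succinate dehydrogenase moved by similar amounts. Sdha, the flavoprotein that oxidises succinate, had 185, 176 and 167 CPM in osteoclast-like cells, against 55.9, 55.5 and 55.6 CPM in monocyte/macrophage-like cells (log2 fold change 1.67 ± 0.10, adjusted p = 1.99e-20). The iron-sulfur subunit gene Sdhb rose by 1.59 ± 0.08, and the membrane anchors Sdhc and Sdhd by 1.44 ± 0.09 and 1.39 ± 0.10 on the log2 scale. The 3 genes for the c ring of the ATP synthase, which encode the same mature protein, were unequal: the log2 fold change was 1.72 ± 0.08 for Atp5g1 and 1.81 ± 0.08 for Atp5g3, against 0.77 ± 0.08 for Atp5g2. These genes and several other members have near-identical copies in the genome, and how reads that fit more than 1 copy were counted is not given in the sources used here.

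The other 7 genes were not called. The complex I genes Ndufa7, Ndufa1 and Ndufv3 had log2 fold changes of 0.49, 0.41 and 0.29, under the 1.5-fold limit. Ndufa4l2 had 14.4, 23.0 and 25.1 CPM in osteoclast-like cells, against 17.6, 15.6 and 22.6 CPM in monocyte/macrophage-like cells, and Cox4i2, Cox6a2 and Atp5s stayed under 4 CPM in both. Cox6b2, the testis form of subunit 6B, was the 1 gene called lower, at 1.98, 2.95 and 4.49 CPM in osteoclast-like cells, against 6.92, 9.39 and 4.59 CPM in monocyte/macrophage-like cells (adjusted p = 0.00567). That call was lost without library 1 (adjusted p = 0.0933), without library 2 (adjusted p = 0.0880) and with DESeq2 (adjusted p = 0.0796).

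**Figure D2:**
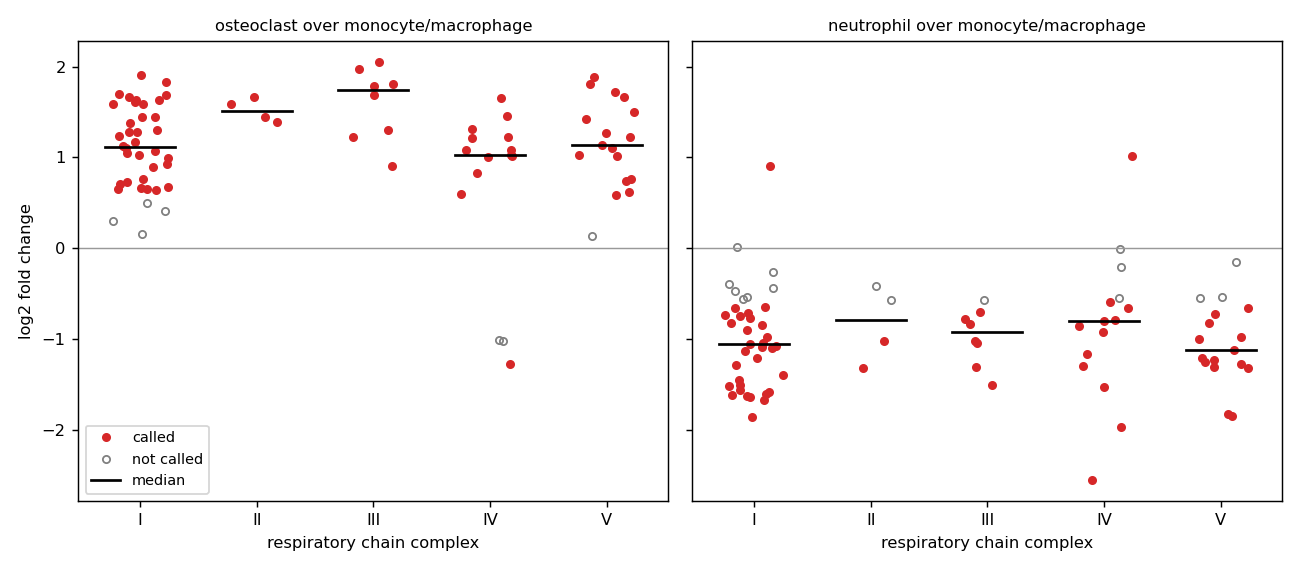
Log2 fold change (vertical axis) of each tested respiratory chain gene by complex (horizontal axis) for osteoclast-like over monocyte/macrophage-like cells (left) and neutrophil-like over monocyte/macrophage-like cells (right). Filled points passed the call, open points did not, and bars are medians. On the left 74 genes are called higher, and on the right 64 are called lower.

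The proportions within the set differed too. Complex III genes made up 12.0% ± 0.11 of the respiratory chain UMIs in osteoclast-like cells and 9.31% ± 0.11 in monocyte/macrophage-like cells, and complex II genes 2.41% ± 0.06 and 1.86% ± 0.03 (SD, n = 3 each). Libraries did not overlap in either share. The summed level differed along the gate too, in a split made after the class totals were known and not tested: it was 44117, 49517 and 47654 CPM in cells with 4 of 8 osteoclast markers above the library level, 49622, 49671 and 51389 CPM with 5, and 61260, 57944 and 60618 CPM with 6 to 8. Just outside the gate, the 90 cells with 3 markers had 39557, 38849 and 36277 CPM, and monocyte/macrophage-like cells with 2 markers had 26941, 23216 and 24433 CPM. The cells with 3 markers were monocyte/macrophage-like, in no class, or mixed.

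**Figure D3:**
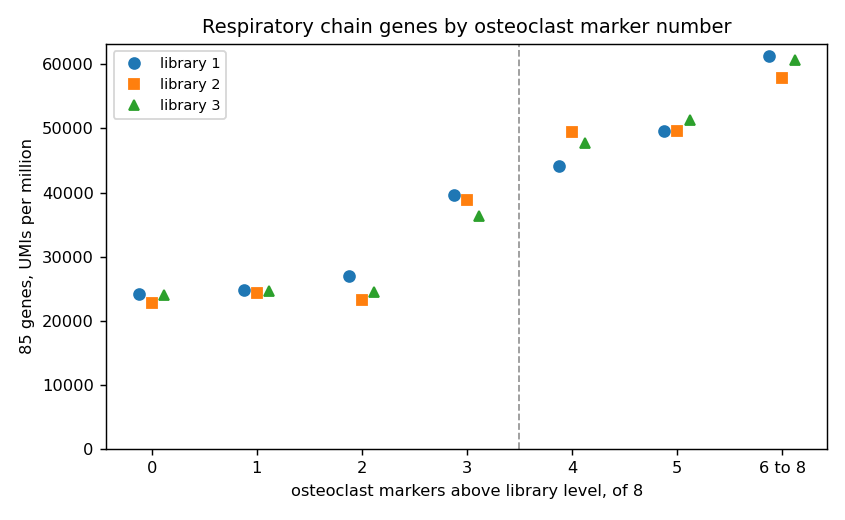
Summed level in CPM of the 85 genes (vertical axis, from 0) by the number of osteoclast markers above the library level (horizontal axis), with a symbol for each library. Points for 0 to 2 markers are monocyte/macrophage-like cells, the dashed line is the edge of the osteoclast gate, and the 3 libraries lie between 57944 and 61260 CPM at 6 to 8 markers.

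Among lists of genes around the chain, all 17 genes of pyruvate dehydrogenase and the TCA cycle were called higher in osteoclast-like cells, and so were all 12 tested mitochondrially encoded genes, whose summed level was 28205, 21758 and 24329 CPM in osteoclast-like cells, against 15119, 12069 and 11371 CPM in monocyte/macrophage-like cells. Cyc1, the haem-carrying cytochrome c1 of complex III, which the name pattern does not take in, rose by 2.55 ± 0.09 on the log2 scale and Cycs, cytochrome c, by 2.18 ± 0.08. Of 8 electron carrier and entry enzyme genes tested, 7 were higher, and Gpd2, the glycerol phosphate shuttle enzyme, fell by 1.05 ± 0.18. Of 16 glycolysis genes, 1 was higher and 4 lower, where 19.6% and 24.3% of all genes tested were called. The median log2 fold change of these 16 was -0.12. The 4 lower genes included the lactate exporter gene Slc16a3 (-2.01 ± 0.12) and Hk2 (-1.48 ± 0.12). Of 13 biogenesis genes tested, 6 were higher and 1 lower: the coactivator gene Ppargc1b had 126, 120 and 95.2 CPM in osteoclast-like cells, against 12.3, 12.7 and 13.3 CPM in monocyte/macrophage-like cells (log2 fold change 3.17 ± 0.12, adjusted p = 2.39e-27), and Nrf1 fell by 0.76 ± 0.15. The neutrophil marker list stood at 2624 to 3917 CPM in osteoclast-like cells, against 1041 to 1199 CPM in monocyte/macrophage-like cells; its part in these results was not tested.

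Neutrophil-like cells had lower levels of most of the set than monocyte/macrophage-like cells. Of 82 genes tested, 64 were called lower and 2 higher, where 31.5% and 32.1% of all 13906 genes tested were called lower and higher. At a limit of 2-fold, 40 were lower and 1 higher, against 20% and 21.6%. In 80 of the 82 genes the 2 classes did not overlap, nor in 74.3% of all genes tested. The median log2 fold change was -0.99 for the respiratory chain genes and -0.02 for all genes. Scaling by library totals alone moved these medians to -1.31 and -0.34, and all genes to 5697 lower and 3173 higher calls, against 4381 and 4463; 75 respiratory chain genes were then lower. Complex V (14 of 17 lower, median -1.13) and complex I (30 of 38, median -1.05) stood beside complex III (7 of 8, -0.93), complex IV (11 of 15, -0.81) and complex II (2 of 4, -0.80).

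Ndufc2, an accessory subunit of complex I, had 53.0, 44.0 and 69.2 CPM in neutrophil-like cells, against 248, 234 and 255 CPM in monocyte/macrophage-like cells (log2 fold change -1.86 ± 0.10, adjusted p = 1.22e-12). Atp5g2 had 104, 83.1 and 143 CPM in neutrophil-like cells, against 490, 485 and 470 CPM in monocyte/macrophage-like cells (log2 fold change -1.85 ± 0.12, adjusted p = 9.89e-12). Uqcrb, a small complex III subunit, had 69.2, 52.5 and 78.6 CPM in neutrophil-like cells, against 259, 223 and 219 CPM in monocyte/macrophage-like cells (log2 fold change -1.51 ± 0.10, adjusted p = 4.21e-11). The groups did not overlap for any of these. Within complex II, Sdhc fell by 1.32 ± 0.10 and Sdhb by 1.02 ± 0.10, while Sdha (-0.42 ± 0.10) and Sdhd (-0.57 ± 0.10) stayed under the 1.5-fold limit. Cox4i1, the common form of subunit 4, fell by 0.86 ± 0.11 on the log2 scale, and Cox8a (-0.21 ± 0.11, adjusted p = 0.0880) was 1 of 3 complex IV genes not called.

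The 2 genes called higher were Ndufa4l2 and Cox4i2, both at low levels. Ndufa4l2 had 26.1, 17.9 and 44.1 CPM in neutrophil-like cells, against 17.6, 15.6 and 22.6 CPM in monocyte/macrophage-like cells, with overlap. The level that free RNA could give in neutrophil-like cells averaged 37.7 CPM over the 3 libraries, and the free RNA share was highest in library 3 (30.8%). Cox4i2 had 3.21, 3.95 and 5.36 CPM in neutrophil-like cells, against 2.09, 3.01 and 2.51 CPM in monocyte/macrophage-like cells. Neither was called once the free RNA was subtracted, although the log2 fold change of Cox4i2 was then 3.72 (adjusted p = 0.0546). With that subtraction, the summed level of neutrophil-like cells was 6892 CPM, and 72 respiratory chain genes were called lower. The calls over all genes under that setting are not given here.

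Among the genes around the chain, 11 of 12 mitochondrially encoded genes were lower in neutrophil-like cells, with sums of 5688, 5167 and 5519 CPM in neutrophil-like cells, against 15119, 12069 and 11371 CPM in monocyte/macrophage-like cells. Of 17 pyruvate dehydrogenase and TCA cycle genes 11 were lower, as were 7 of 8 electron carrier and entry enzyme genes; Gpd2 rose by 1.03 ± 0.10 on the log2 scale. Of 16 glycolysis genes 4 were higher and 2 lower, where 32.1% and 31.5% of all genes tested were called. The median log2 fold change of these 16 was -0.27. Slc16a3, the largest higher call among them, had 570, 590 and 652 CPM in neutrophil-like cells, against 176, 152 and 231 CPM in monocyte/macrophage-like cells (log2 fold change 2.03 ± 0.13, adjusted p = 1.45e-11). Of 13 complex I assembly factor genes 10 were lower and 1 higher, Ndufaf7 (1.52 ± 0.12), which methylates a complex I subunit. Of 29 assembly factor genes of complexes II to V 18 were lower and 1 higher, the copper chaperone gene Cox17 (0.86 ± 0.11). The fibroblast marker list stood at 1485 to 3167 CPM in neutrophil-like cells, against 1084 to 1672 CPM in monocyte/macrophage-like cells; its part in these results was not tested.

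Immature neutrophil-like cells, marked by granule genes, and mature ones had nearly the same summed level: 10135, 10526 and 12521 CPM in immature cells, against 10763, 9279 and 12425 CPM in mature cells, with overlap. Neutrophil-like cells with 2 to 4 immature markers, which belong to neither gate, had 9929, 8573 and 10974 CPM. This was under both gates in each library and was not tested. After scaling by trimmed means, 20 of 79 tested genes were called higher in immature cells and 0 lower, against 10.0% and 14.0% of all 10447 genes tested. The median log2 fold change was 0.41 for the respiratory chain genes and -0.05 for all genes. At a limit of 2-fold, 2 were higher and 0 lower, against 5.72% and 8.41% of all genes. Scaling by library totals alone moved the median of all genes to -0.40 and that of the respiratory chain genes to 0.06, with 4 called higher, and all genes to 573 higher and 2903 lower calls, against 1047 and 1463. With free RNA subtracted, 44 respiratory chain genes were called higher, and the calls over all genes under that setting are not given here. At an unadjusted p under 0.05, edgeR put 51 of the 79 higher and 0 lower, against 16.5% and 21.3% of all genes. DESeq2 called 26 higher and 0 lower, against 8.22% and 8.85%.

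The 20 genes were 13 of complex I, 2 of complex III, 1 of complex IV and 4 of complex V. Ndufa1, a membrane arm subunit, had 194, 212 and 260 CPM in immature cells, against 141, 111 and 147 CPM in mature cells (log2 fold change 1.09 ± 0.12, adjusted p = 5.03e-10). Atp5f1, a peripheral stalk subunit of the ATP synthase, had 161, 141 and 182 CPM in immature cells, against 102, 96.5 and 126 CPM in mature cells (log2 fold change 0.94 ± 0.12, adjusted p = 3.78e-08). Uqcrc2 (0.68 ± 0.18) and Cox7c (0.76 ± 0.11) were the largest calls of complexes III and IV, and their groups overlapped. Under library totals the calls of Atp5f1 (0.58), Cox7c (0.41) and Uqcrc2 (0.33, adjusted p = 0.137) were lost. Ndufs4, singled out after its values were seen, was called higher although it had 28.5 CPM in immature cells of library 3, against 50.4 CPM in mature cells of that library. Of the mitochondrially encoded genes, 3 of 12 were called lower in immature cells, with sums of 4390, 4082 and 4098 CPM in immature cells, against 6093, 5798 and 5624 CPM in mature cells.

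Cycling monocyte/macrophage-like cells had a summed level of 27927, 28899 and 27246 CPM, against 24155, 22676 and 24009 CPM in non-cycling ones, 1.19 ± 0.08 times as much (SD, n = 3). The libraries did not overlap. Of single genes, 1 of 82 was called higher and 0 lower, against 7.91% and 7.06% of 12648 genes tested, and the median log2 fold change was 0.21, against -0.06 for all genes. At a limit of 2-fold 0 were higher and 0 lower, against 5.21% and 2.46%. At an unadjusted p under 0.05, edgeR put 33 of the 82 higher and 3 lower, against 13.8% and 16.4% of all genes. DESeq2 called 1 higher and 0 lower, against 6.59% and 3.84%. Scaling by library totals alone gave 1177 higher and 610 lower calls over all genes, against 1000 and 893. The gene called, Ndufa5, a peripheral arm subunit of complex I, had 210, 246 and 188 CPM in cycling cells, against 141, 126 and 137 CPM in non-cycling cells (log2 fold change 0.59 ± 0.12, adjusted p = 0.000257), and was not called without library 2 (0.40, adjusted p = 0.0199), with each cell thinned to 1000 UMIs (-0.02, adjusted p = 0.987), with free RNA subtracted (0.76, adjusted p = 0.0574) or without the filter on low counts (0.54). On simulated counts for this comparison, 35.4% of changes of 2-fold were recovered in genes drawn from all genes tested. The respiratory chain genes were not simulated on their own, so this share does not tell how many of their changes could be missed. The same ratio was 1.12 ± 0.04 in cycling over non-cycling fibroblast-like cells and 1.11 ± 0.02 in cycling over non-cycling endothelial-like cells. Free RNA could make up as much as 51.7% of the UMIs of cycling monocyte/macrophage-like cells in library 2 and 42.4% in library 3.

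Fibroblast-like cells had 0.841 ± 0.010 times the summed level of monocyte/macrophage-like cells, lower in 3 of 3 libraries, and few single genes were called. Of 82 genes tested, 3 were called higher and 10 lower, where 30.6% and 27.5% of all 15039 genes tested were called, and the median log2 fold change was -0.10, against 0.03 for all genes. At a limit of 2-fold, 1 was higher and 3 lower, against 23.3% and 18.7%. Scaling by library totals alone moved these medians to -0.22 and -0.09 and gave 16 lower calls. Ndufa4l2, a paralogue of Ndufa4 known as a target of hypoxia-inducible factor, had 272, 211 and 225 CPM in fibroblast-like cells, against 17.6, 15.6 and 22.6 CPM in monocyte/macrophage-like cells (log2 fold change 3.79 ± 0.10, adjusted p = 2.06e-11). Cox5a, a nuclear subunit of complex IV, had 196, 184 and 215 CPM in fibroblast-like cells, against 500, 467 and 548 CPM in monocyte/macrophage-like cells (log2 fold change -1.23 ± 0.06, adjusted p = 3.93e-09). The largest lower call was Cox7a1, at 4.58, 2.57 and 3.53 CPM in fibroblast-like cells, against 19.6, 16.7 and 22.7 CPM in monocyte/macrophage-like cells (log2 fold change -2.35 ± 0.12, adjusted p = 4.99e-09). The classes did not overlap in these 3 genes. Cox6a2 fell by 1.87 ± 0.28 from a low level, and Atp5f1 fell by 0.59 ± 0.06, a call lost without the filter on low counts (-0.55) and with cells thinned to 1000 UMIs (-0.57). Sdhb (-0.81 ± 0.06), Uqcrfs1, the Rieske iron-sulfur protein (-0.80 ± 0.06), and Ndufb8 (-0.75 ± 0.06) also fell, and Ndufv1, the NADH-binding subunit, rose by 0.65 ± 0.06. The mitochondrially encoded sum of fibroblast-like cells was 0.768 ± 0.022 times that of monocyte/macrophage-like cells. Of 16 glycolysis genes, 11 were lower and 1 higher in fibroblast-like cells.

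Within the fibroblast-like cells, those of the lining gate had a summed level of 23682, 22499 and 22607 CPM, against 18410, 17800 and 18506 CPM in the sublining gate, without overlap and 1.26 ± 0.03 times as much. Ndufa4l2 had 342, 323 and 355 CPM in lining cells, against 146, 104 and 129 CPM in sublining cells. These sub-gates were compared by values only.

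Pericyte/smooth-muscle-like cells had 1.18 ± 0.02 times the summed level of fibroblast-like cells, higher in 3 of 3 libraries. After scaling by trimmed means, the 2 classes differed in a few single genes, most of them isoforms. Of 82 genes tested, 6 were called higher and 3 lower, against 15.5% and 14.6% of all 14039 genes tested, with a median log2 fold change of -0.12 for the respiratory chain genes and -0.01 for all genes. Scaling by library totals alone moved these medians to 0.29 and 0.39 and the calls to 11 higher and 1 lower, with 4576 higher and 1123 lower calls over all genes, against 2181 and 2051. At a limit of 2-fold, 5 were higher and 1 lower, against 9.72% and 8.97%. Atp5e, the epsilon subunit of the ATP synthase, was called lower (-0.68 ± 0.06) with overlapping groups, and under library totals it stood at -0.27. Cox4i2, the alternative form of complex IV subunit 4, known from lung and from oxygen-sensing cells, had 299, 224 and 305 CPM in pericyte/smooth-muscle-like cells, against 5.33, 3.46 and 4.24 CPM in fibroblast-like cells. This was a log2 fold change of 5.58 ± 0.10 (adjusted p = 1.70e-12). Cox4i2 made up 25.3%, 20.7% and 25.2% of the UMIs of the Cox4i1 and Cox4i2 pair in pericyte/smooth-muscle-like cells, against 0.73%, 0.50% and 0.56% in fibroblast-like cells. Cox4i1 itself had 881 ± 24.2 CPM in pericyte/smooth-muscle-like cells and 722 ± 33.0 CPM in fibroblast-like cells (log2 fold change after scaling -0.12 ± 0.06, adjusted p = 0.153).

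Subunit Ndufa4 and its paralogue moved in opposite directions. Ndufa4l2 had 645, 575 and 711 CPM in pericyte/smooth-muscle-like cells, against 272, 211 and 225 CPM in fibroblast-like cells (log2 fold change 1.04 ± 0.08, adjusted p = 4.53e-07). Ndufa4 had 164, 158 and 136 CPM in pericyte/smooth-muscle-like cells, against 276, 297 and 243 CPM in fibroblast-like cells (log2 fold change -1.24 ± 0.08, adjusted p = 5.69e-08). Ndufa4l2 thus made up 80.7% ± 2.90 of the pair in pericyte/smooth-muscle-like cells and 46.4% ± 4.28 in fibroblast-like cells, and 2.49% ± 0.92 in osteoclast-like cells, where its level lay under the free RNA limit.

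Both isoforms were found across the mural class. Cells with 2 or more UMIs of Myh11, a smooth muscle myosin gene, had 303, 239 and 353 CPM of Cox4i2, against 303, 244 and 298 CPM in cells without Myh11 that had 2 or more UMIs of the pericyte genes Kcnj8, Abcc9 and Higd1b. Ndufa4l2 had 644, 523 and 748 CPM in the Myh11 cells, against 650, 723 and 817 CPM in the others. This division was chosen after the levels of the class were known and was not tested. The fibroblast marker list stood at 6542 to 7233 CPM in pericyte/smooth-muscle-like cells, against 17937 to 20881 CPM in fibroblast-like cells; its part in these results was not tested.

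Cox7a1, the heart and muscle form of subunit 7A, had 66.5, 57.8 and 57.5 CPM in osteoclast-like cells, against 19.6, 16.7 and 22.7 CPM in monocyte/macrophage-like cells (log2 fold change 1.65 ± 0.13, adjusted p = 2.88e-15). That call was lost with cells thinned to 1000 UMIs (1.34, adjusted p = 0.0703). It had 17.2, 15.2 and 14.8 CPM in pericyte/smooth-muscle-like cells, against 4.58, 2.57 and 3.53 CPM in fibroblast-like cells (log2 fold change 1.76 ± 0.21, adjusted p = 2.32e-05), and 2.75 ± 0.86 CPM in neutrophil-like cells, where free RNA could give up to 2.46 CPM and the log2 fold change over monocyte/macrophage-like cells was -2.56 ± 0.16. Its common counterpart Cox7a2 rose in osteoclast-like cells as well, by 1.31 ± 0.08. Cox8b, the muscle form of subunit 8, was found in adipocyte-like cells at 45.2, 98.7 and 61.5 CPM and averaged at most 1.28 CPM in the other classes plotted. Cox6b2 had 22.6, 26.8 and 23.2 CPM in pericyte/smooth-muscle-like cells, against 6.19, 6.26 and 6.38 CPM in fibroblast-like cells (log2 fold change 1.54 ± 0.16, adjusted p = 4.69e-06).

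**Figure D4:**
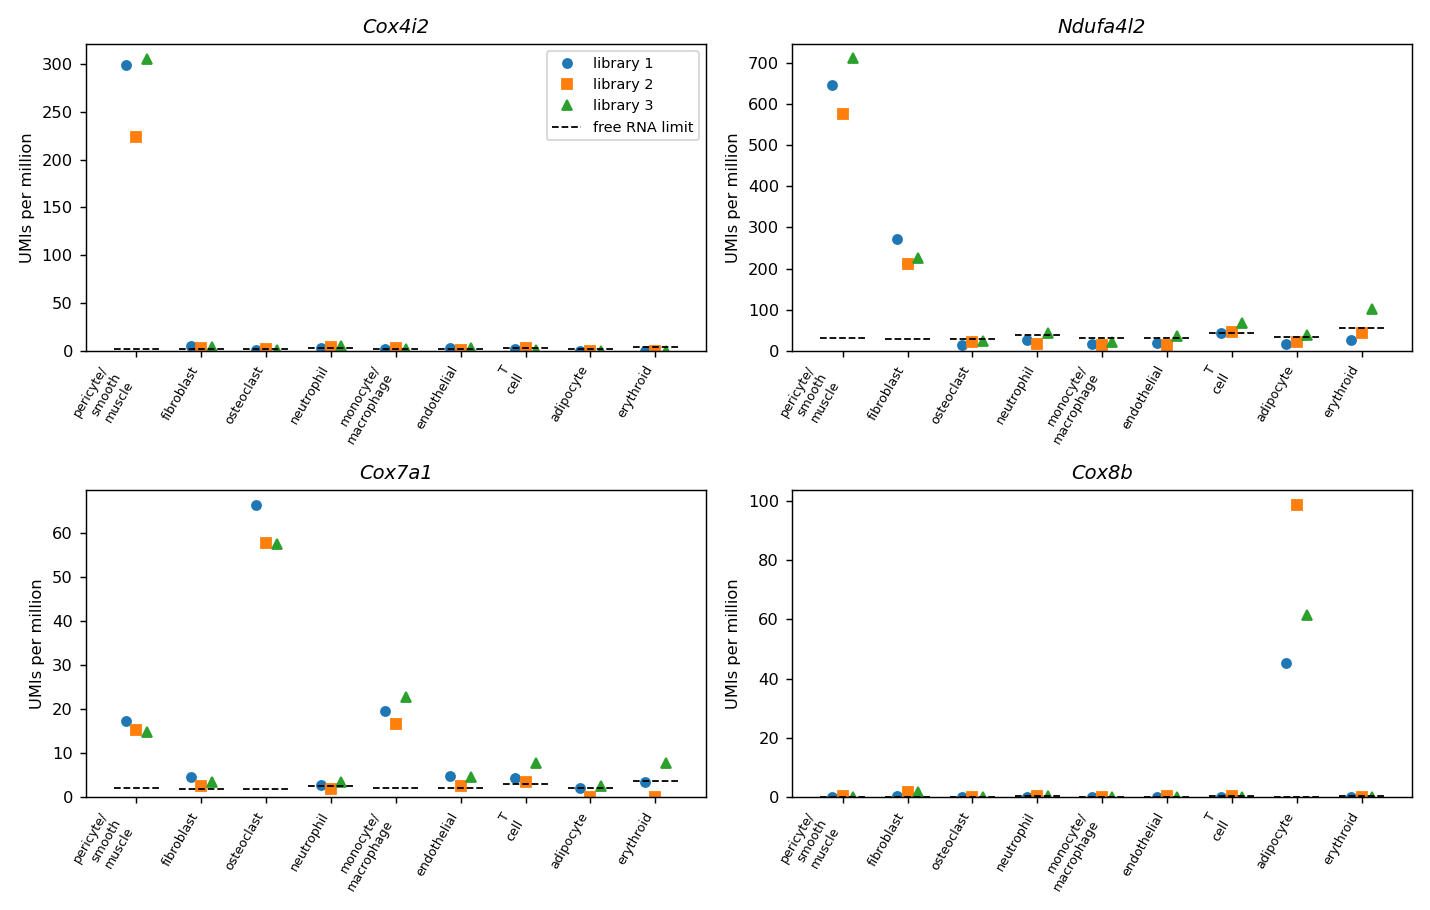
Level in CPM (vertical axes, from 0) of 4 subunit forms in 9 cell classes, with a symbol for each library. The dashed line is the mean over libraries of the level that free RNA could give. Cox4i2 reaches 224 to 305 CPM in pericyte/smooth-muscle-like cells, Ndufa4l2 575 to 711 CPM in the same class, Cox7a1 57.5 to 66.5 CPM in osteoclast-like cells and Cox8b 45.2 to 98.7 CPM in adipocyte-like cells.

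Cox6a2, the heart and muscle form of subunit 6A, was held by few cells. Of its 1899 UMIs, 1503 (79.1%) lay in 92 of 38722 cells, those with 2 or more UMIs of Siglech, a gene of plasmacytoid dendritic cells. Its level was 2408, 1775 and 1398 CPM in these cells, against 1.21, 1.32 and 1.19 CPM in cells without a Siglech UMI. Siglech was chosen for this count after Cox6a2 was seen to be highest in the dendritic gate. That gate also held the fibroblast marker list at 4469 to 5324 CPM and is used in no test; it was 1 of the 10 classes in which highest and lowest levels were counted. The call of Cox6a2 as higher in pericyte/smooth-muscle-like cells (1.23, 1.60 and 10.6 CPM, against 0.675, 0.934 and 0.356 CPM in fibroblast-like cells) rested on library 3, and without it the log2 fold change was 0.40 (adjusted p = 0.645).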

How the data were processed

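The authors deposited unnormalised UMI counts per gene and barcode for each library, and the file headers name PISA 1.0 as the program that wrote them. Seurat 3.0.2, R 3.6 and the GRCm39 build are named in the submitters' processing notes. The aligner, the annotation and the handling of reads that match several copies were not given in the sources used here. Barcodes had at least 1000 UMIs as deposited; those with under 200 genes or over 20% mitochondrial UMIs were left out.

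Classes were gated, not clustered: a marker counted as above the library level at 1 UMI or more and 2 times the library's mean share, a class needed 3 markers (4 for osteoclast, cycling, infiltrating monocyte and sublining fibroblast, 5 for immature neutrophil), and a cell whose second class had more than 0.5 of the first's share was set aside as mixed. The osteoclast and dendritic gates were then applied to monocyte/macrophage-like cells, cells in no class and mixed cells. Both classes can therefore hold cells first marked as mixed. The cells left as mixed stand in for doublets, since no doublet caller was run. Removal of doublets before deposit was not given in the sources used here. Members, gene lists and gates were chosen with earlier results of these data known.

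Counts were summed per library and class, and edgeR 4.0.16 (quasi-likelihood test, filterByExpr, trimmed mean scaling, library as a block, Benjamini-Hochberg adjustment over all genes tested) compared classes in pairs. The block pairs sums that share their mice. Calls required an adjusted p under 0.05 with a fold change of at least 1.5. CPM in the text are on library totals and log2 fold changes on the trimmed mean scale, so the 2 can differ in size. Named genes were drawn from the largest call in each direction per complex and per list and from the complex II genes and subunit forms. Genes beyond these, such as Cox5a, Ndufv1, Ndufs4 and those named as not called, and the Siglech cells were chosen after their values were seen. The test was tried on simulated counts. Alternatives were DESeq2 1.42.0, its size factors, library totals, no filter, a 2-fold limit, no block, a stricter gate, cells thinned to 1000 UMIs, cells over 30000 UMIs left out, free RNA subtracted, and each library left out. Promoters came from RefSeq on GRCm38.p6, another build than the counts, and were matched by symbol. Figures used matplotlib 3.10.9.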

Additional observations from a re-analysis of the deposited data

How the results depend on the processing

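The counts for osteoclast-like over monocyte/macrophage-like cells (74 higher) and for neutrophil-like over monocyte/macrophage-like cells (64 lower) stayed within 1.5 times their value under every alternative run, apart from the 2-fold limit for neutrophil-like cells (40 lower, 1 higher). The 2 genes higher in neutrophil-like cells became 1 with cells thinned to 1000 UMIs and 0 with free RNA subtracted, and the 1 gene lower in osteoclast-like cells became 0 with DESeq2, 0 when thinned and 0 to 1 with a library left out. Immature over mature neutrophil-like cells gave 4 higher under library totals, 2 at the 2-fold limit and 44 with free RNA subtracted, against 20, and 1 lower without the filter or 0 to 1 with a library left out, against 0. Cycling over non-cycling monocyte/macrophage-like cells gave 3 higher with DESeq2's size factors, 3 under library totals, 4 with the stricter gate, 0 without the filter, at 2-fold or when thinned, and 0 to 3 with a library left out, against 1; thinning gave 1 lower and turned Ndufa5 to -0.024 (adjusted p = 0.987). Fibroblast-like over monocyte/macrophage-like cells gave 16 lower under library totals, 3 lower and 1 higher at 2-fold and 5 lower when thinned, against 10 lower and 3 higher. Pericyte/smooth-muscle-like over fibroblast-like cells gave 11 higher and 1 lower under library totals, 1 lower at 2-fold and 5 lower with free RNA subtracted, against 6 and 3. Without the replicate block the counts were 74 higher for osteoclast-like, 64 lower for neutrophil-like, 17 higher for immature, 1 for cycling, 3 higher and 10 lower for fibroblast-like and 6 and 3 for pericyte/smooth-muscle-like cells. With free RNA subtracted, the mean sums were 6892.416 CPM in neutrophil-like, 8213.47 in immature, 6940.765 in mature and 60555.018 in osteoclast-like cells, and the pericyte/smooth-muscle-like shares were 27.885% for Cox4i2 and 85.993% for Ndufa4l2. Thinning gave sums of 22672.954 CPM in monocyte/macrophage-like, 19294.605 in fibroblast-like and 22344.315 in pericyte/smooth-muscle-like cells and a Cox4i2 share of 30.029%. The osteoclast-like sum was 55215.953 CPM with the stricter gate and 54326.957 CPM without cells over 30000 UMIs. The causes of these shifts were not tested. Of 1611 values of named genes under an alternative, 1528 kept their side of the limits, 50 lost the call, 32 gained it and 1 reversed. A change of direction counted as reversed only where the gene was called in the main or the alternative run.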

Other observations

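Within the monocyte/macrophage-like cells, the resident macrophage gate and the infiltrating monocyte gate had nearly the same summed level of the 85 nuclear-encoded genes, with a ratio of 0.984 ± 0.074 (SD, n = 3 libraries). Their mitochondrially encoded genes did not share that ratio: it was 2.35, 2.50 and 1.89 in libraries 1, 2 and 3. Lining over sublining fibroblast-like cells showed the opposite order of the 2 sets, with a ratio of 1.29, 1.26 and 1.22 for the nuclear-encoded genes and of 0.992, 1.19 and 0.823 for the mitochondrially encoded ones. These ratios are descriptions of gated sums and were not tested.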
